A study of Mus musculus with 4 samples.

Results

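Antigen-presenting barcodes were chosen from the thymus of 1 WT and 1 *Eif4g2* cKO mouse by their own transcripts. A barcode was kept when its UMIs of *Tyrobp*, *Lyz2*, *C1qa*, *C1qb*, *Cd74*, *H2-Eb1*, *H2-Ab1* and *H2-Aa* summed to at least 10, where a UMI (unique molecular identifier) marks 1 captured molecule. The rule kept 75 of 10349 barcodes, 52 of 6014 in WT (0.865%, exact binomial interval 0.646 to 1.13%) and 23 of 4335 in *Eif4g2* cKO (0.531%, 0.337 to 0.795%). These are shares that the rule fixed and are given as a description. The WT mouse carried floxed *Eif4g2* alleles without Cre, and the *Eif4g2* cKO mouse carried the same alleles with the *Cd4*-*Cre* transgene, which drives recombination in cells of the T lineage. Both mice were 5 weeks old and labelled female, and both libraries bear the same batch label. The thymus was dissociated mechanically and the cells were not sorted. With 1 mouse and 1 library per genotype there were no replicates, so no test was made, and every interval printed is at 95% and covers counting error only.

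Antigen-presenting cells of the thymus display peptides to developing T cells. Macrophages of the cortex and medulla engulf the many thymocytes that die during selection, and they make the complement protein C1q. Conventional dendritic cells of the cDC1 and cDC2 kinds, plasmacytoid dendritic cells and thymic B cells take part in presentation as well, and B cells and dendritic cells carry MHC class II in high amounts. Of the genes of the rule, *H2-Aa*, *H2-Ab1* and *H2-Eb1* encode class II chains and *Cd74* the invariant chain that guides them. *Lyz2* encodes lysozyme of macrophages, monocytes and granulocytes, *C1qa* and *C1qb* encode chains of C1q, and *Tyrobp* encodes DAP12, a signalling adaptor of myeloid cells that natural killer cells use as well.

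In all, 18355050 UMIs were counted for WT and 18056277 for *Eif4g2* cKO, with at least 1000 UMIs in every barcode. The chosen barcodes held 239973 UMIs in WT and 137569 in *Eif4g2* cKO. Their depth ran from 1188 to 47667 UMIs in WT (median 2389) and from 1363 to 25156 in *Eif4g2* cKO (median 3091), against medians of 1728 and 2134.5 UMIs in all other barcodes. The deepest barcode alone held 19.9% of these UMIs for WT and 18.3% for *Eif4g2* cKO. A fixed number of UMIs favours deep barcodes. When each barcode was thinned to 1000 UMIs, 45 WT and 12 *Eif4g2* cKO barcodes still passed.

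The WT library went against its label of sex. *Eif2s3y*, *Kdm5d* and *Uty*, genes of the Y chromosome, gave 21 UMIs in 16 of the 52 WT barcodes (87.5 CPM, counts scaled to a total of 1000000 UMIs) and 139 CPM in the other WT barcodes, although the mouse is labelled female. They gave 0 UMIs in the 23 *Eif4g2* cKO barcodes and 1 UMI in the rest of that library. *Ddx3y*, also on the Y chromosome, gave 24 WT and 2 *Eif4g2* cKO UMIs. The part of this difference in the results was not tested. The libraries share 1055 barcode names, which are serial numbers, and no name was borne by chosen barcodes of both libraries.

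The rule separated a small set from a large background. In WT 5119 barcodes had 0 UMIs of the 8 genes, 818 had 1 to 4 and 25 had 5 to 9, and in *Eif4g2* cKO these numbers were 3985, 316 and 11. Above the threshold, 3 WT and 4 *Eif4g2* cKO barcodes had 10 to 19 UMIs, and 49 and 19 had at least 20. The lowest WT barcodes inside had 13, 18, 18, 22 and 23 UMIs and the highest outside 9, 9, 8, 8 and 7. In *Eif4g2* cKO the lowest inside had 10, 12, 13, 16 and 21 UMIs and the highest outside 8, 8, 7, 7 and 7. The barcodes outside the rule held the 8 genes at 67.0 (WT) and 25.95 CPM, the latter in *Eif4g2* cKO.

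**Figure D1:**
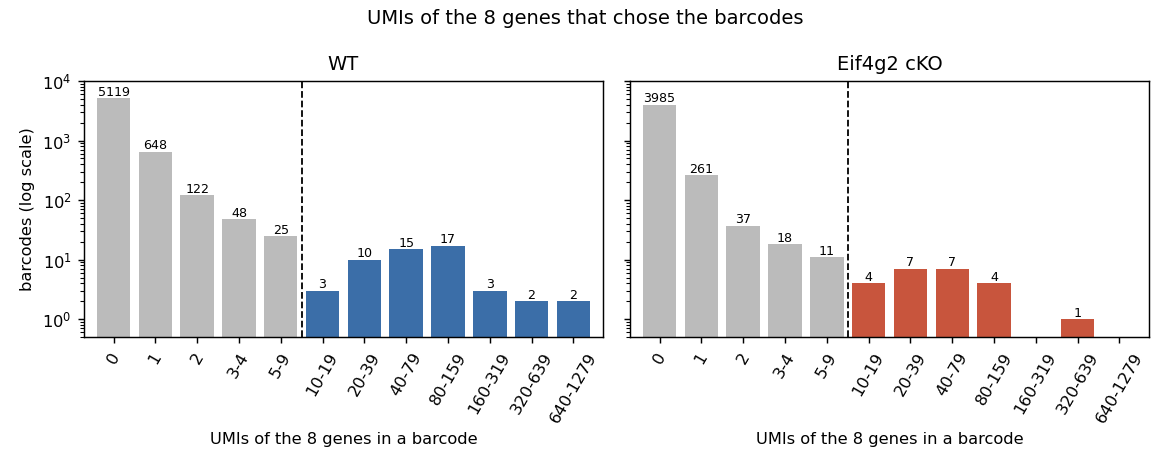
Number of barcodes (y axis, log scale) by their summed UMIs of the 8 genes of the rule (x axis), in WT (left) and *Eif4g2* cKO (right), with the count above each bar and the threshold of 10 UMIs as a dashed line. Near the threshold, 28 WT barcodes and 15 *Eif4g2* cKO barcodes had 5 to 19 UMIs, beside 52 and 23 chosen barcodes.

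Different genes brought the barcodes past the threshold in the 2 libraries. The 4 class II genes together had more UMIs than the other 4 in 41 of 52 WT barcodes and in 6 of 23 *Eif4g2* cKO barcodes, and *Tyrobp* had the most of any single gene in 8 and 14. At least 1 class II UMI was found in 47 WT and 13 *Eif4g2* cKO barcodes. In 13 *Eif4g2* cKO barcodes and 2 WT barcodes the threshold was reached through *Tyrobp*, with the other 7 genes together under 10 UMIs. So the label of antigen-presenting, myeloid and dendritic cells was met in part: many WT barcodes carried B cell genes, and 10 of 23 *Eif4g2* cKO barcodes, against 5 of 52 WT barcodes, carried *Tyrobp* without a class II UMI.

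Summed over the chosen barcodes, *Cd74* stood at 10001 CPM (9605 to 10409) in WT and 2595 (2333 to 2879) in *Eif4g2* cKO. *H2-Ab1* stood at 5501 and 981, *H2-Aa* at 4284 and 1083, and *H2-Eb1* at 4084 and 741. The myeloid genes of the rule were not all lower in *Eif4g2* cKO: *Tyrobp* stood at 2559 (2360 to 2769) in WT and 4361 (4019 to 4725) in *Eif4g2* cKO, *Lyz2* at 1000 and 531, *C1qa* at 333 and 124, and *C1qb* at 250 and 94.5. Few barcodes carried much of some sums. The 2 barcodes richest in *Lyz2* held 70.4% of its UMIs in WT and 98.6% in *Eif4g2* cKO, and the 2 richest in *Cd74* held 27.0% and 70.0%. *Irf8*, a transcription factor of dendritic and B cells that was not in the rule, had 97 UMIs in 22 WT barcodes (404 CPM) and 47 UMIs in 12 *Eif4g2* cKO barcodes (342 CPM), against 5.74 and 5.30 CPM in all other barcodes. A summed level cannot tell fewer barcodes of a kind from less RNA per barcode, so the kinds of barcode were taken apart next.

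On the build GRCm38, *H2-Aa* lies at chr17:34282744-34287823, *H2-Ab1* at chr17:34257689-34269419 and *H2-Eb1* at chr17:34305867-34316674. *Lyz2* lies at chr10:117277331-117282321, *Tyrobp* at chr7:30413760-30417585, and *C1qa* and *C1qb* at chr4:136895917-136898803 and chr4:136880129-136886187. These spans hold the whole gene with exons, introns and untranslated ends, as GENCODE M21 gives them.

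Class II genes share a module of promoter elements, of which the Y box binds NF-Y and the master regulator CIITA is recruited to the whole. Its core is shown to describe the promoters of the class II genes, and it was not set against their levels. The letters TGATTGG were searched on both strands of the RefSeq promoters of GRCm38.p6, 250 bases before to 50 after the start, and no other motif was searched. They occurred in 7 of the 8 class II genes with an entry and in 2568 of 32851 promoters in all (7.82%). *H2-DMa* has an entry without the letters, and *H2-Ab1* has none. *H2-Eb2* was not among the genes whose levels were compared. A match describes the sequence and is not a measured binding site. Each line gives 30 bases on the strand of the gene, 5′ to 3′, with the 7 letters in capitals. The letters begin between 45 (*H2-Oa*) and 102 (*H2-Eb2*) bases before the start. The windows are chr17:34287855-34287884 (minus strand) for *H2-Aa*, and on the plus strand chr17:34305795-34305824 for *H2-Eb1*, chr17:34325562-34325591 for *H2-Eb2*, chr17:34153117-34153146 for *H2-DMb1*, chr17:34145146-34145175 for *H2-DMb2*, chr17:34092323-34092352 for *H2-Oa* and chr17:34238835-34238864 for *H2-Ob*.
H2-Aa: agagaattttcTGATTGGttctggcgagtt
H2-Eb1: tcctttgatgcTGATTGGctcccagcactg
H2-Eb2: ctcttggctgcTGATTGGttcttcagcact
H2-DMb1: gattcactcagTGATTGGtctgacctgcct
H2-DMb2: aagtcacttagTGATTGGactgacttaact
H2-Oa: gagaactgctcTGATTGGctgcttaccgca
H2-Ob: gtcttcgctctTGATTGGttaacagtgtga

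The 75 barcodes of both libraries were clustered together, without thymocyte and Y-linked genes among the clustering genes, and fell into 5 clusters. A cluster was named only where its leading genes fitted marker lists. The names are rebuilt here and rest on the same cells, so cluster genes are a description. Cluster 1 was B cell-like and held 21 WT barcodes (40.4%, 27.0 to 54.9%) and 1 *Eif4g2* cKO barcode (4.35%, 0.110 to 21.9%). Cluster 2 was cDC1-like and held 13 WT (25.0%, 14.0 to 38.9%) and 4 *Eif4g2* cKO barcodes (17.4%, 4.95 to 38.8%). The WT share of cDC1-like barcodes fell to 11.5% at a resolution of 1.5 and to 7.69% by the marker list with most UMIs. The marker lists alone would call clusters 0, 3 and 4 macrophage-like, plasmacytoid dendritic cell-like and natural killer or innate lymphoid cell-like. These names were set aside. Clusters 0, 3 and 4 mixed barcodes with the genes of different kinds of cell and stay unnamed. They held 10, 6 and 2 WT barcodes and 8, 6 and 4 *Eif4g2* cKO barcodes. No doublet caller was run, and barcodes of 2 cells may be among them.

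**Figure D2:**
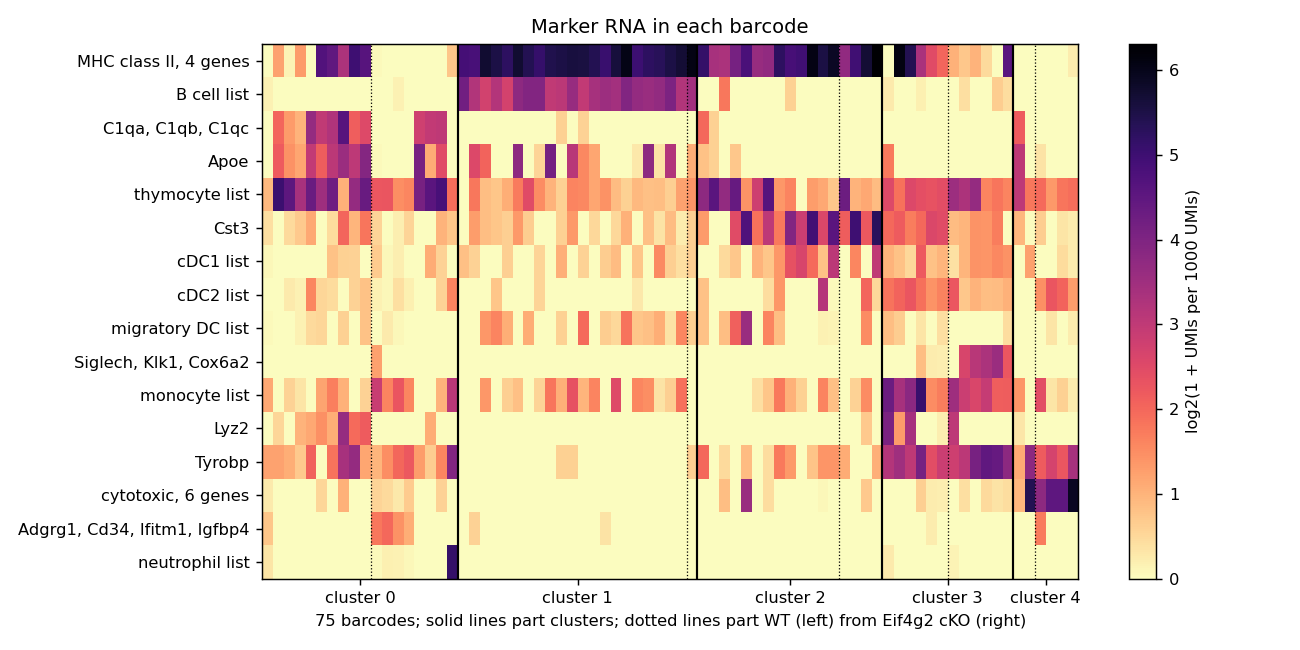
UMIs per 1000 UMIs, as log2(1 + value) by color, of genes and gene lists (rows) in each of the 75 barcodes (columns), ordered by cluster and, within a cluster, WT to the left of *Eif4g2* cKO. The B cell list has its highest values in cluster 1, while class II UMIs run through clusters 1 and 2 and are near 0 in cluster 4.

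B cell-like barcodes were the largest kind in WT and were nearly missing from the *Eif4g2* cKO barcodes. Leading genes of cluster 1 were *Cd79a*, *Ms4a1*, *Cd79b*, *Ebf1*, *Fcmr*, *H2-DMb2*, *Ccr6*, *Bank1* and *H2-Ob*, and 9 of the 10 B cell markers in the files were raised in it. *Cd79a* and *Cd79b*, the signalling chains of the B cell receptor, had 190 and 114 UMIs in the 21 WT barcodes, each in 21 of 21. *Ms4a1*, which encodes CD20, had 77 UMIs in 19 of them, and *Ebf1*, a transcription factor of the B lineage, 55 UMIs in 11. The single *Eif4g2* cKO barcode had 7 UMIs of *Cd79a*, 3 of *Cd79b* and 1 of *Ms4a1* among its 1827 UMIs.

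The gap was also looked for without the rule, and its size depended on the genes used. Over the whole libraries, at least 3 UMIs of *Cd79a* and *Ms4a1* together were found in 23 WT barcodes (0.382%, 0.243 to 0.573%), of which 22 were among the chosen ones, and in 1 *Eif4g2* cKO barcode (0.0231%, 0.000584 to 0.128%). These intervals did not overlap, but each stands for 1 mouse. Outside the chosen barcodes these genes stood at 1.60 (WT) and 0.446 CPM, the latter in *Eif4g2* cKO. With *Cd79b* added to the sum, 37 WT (0.615%, 0.434 to 0.847%) and 14 *Eif4g2* cKO barcodes (0.323%, 0.177 to 0.541%) passed, and the intervals overlapped. Of these, 14 WT and 13 *Eif4g2* cKO barcodes lay outside the chosen ones, where *Cd79b* stood at 27.9 CPM in WT and 32.5 in *Eif4g2* cKO.

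The WT B cell-like barcodes shared further genes that the rule did not use. *Ly6a*, which encodes Sca-1, had 127 UMIs in 21 of 21 barcodes, from a gene at 21.8 CPM in all other WT barcodes. *Apoe*, a lipid carrier best known from macrophages, had 168 UMIs in 12 of 21 barcodes and up to 49 in 1, whereas C1q transcripts were limited there to 1 UMI each of *C1qa* and *C1qc*. *Ifi27l2a*, an interferon-induced gene, had 136 UMIs in 17 barcodes. *H2-DMb2*, *H2-Oa* and *H2-Ob* encode chains of the class II peptide editors DM and DO, and had 63, 56 and 41 UMIs in 18, 19 and 15 of 21 barcodes.

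cDC1-like barcodes were found in both libraries. Cluster 2 was led by *Cst3*, *Ckb*, *Ifi205*, *Naaa*, *Ppt1*, *Aif1*, *Rab7b*, *Cxcl16*, *Plbd1* and *Rogdi*, and 9 of 13 cDC1 markers were raised, among them *Xcr1*, *Irf8*, *Batf3* and *Wdfy4*. *Cst3*, which encodes the protease inhibitor cystatin C, had 681 UMIs in 11 of 13 WT barcodes and 254 UMIs in 4 of 4 *Eif4g2* cKO barcodes. *Clec9a*, a receptor for dead cells, and *Xcr1*, the chemokine receptor that marks cDC1, were found in few barcodes. A WT barcode of 19436 UMIs had 444 UMIs of *Cst3*, 44 of *Irf8*, 19 of *Wdfy4*, 18 of *Naaa*, 6 of *Xcr1* and 3 of *Clec9a*, and an *Eif4g2* cKO barcode of 4759 UMIs had 180 of *Cst3*, 12 of *Irf8*, 5 of *Naaa*, 2 of *Wdfy4*, and 1 each of *Xcr1* and *Clec9a*. They had the most *Irf8* UMIs of their library in this cluster, 44 of 51 in WT and 12 of 13 in *Eif4g2* cKO.

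Other barcodes of cluster 2 carried other genes. A WT barcode of 17197 UMIs had 107 UMIs of *S100a4* and 15 of *Cd209a*, both in the cDC2 list, and 0 of *Xcr1*. The shallowest WT barcode, with 1188 UMIs, had 30 UMIs of *Cst3*, 13 of *Ccl5*, 5 of *Ccr7* and 3 of *Ccl22*, genes of migratory dendritic cells in the case of *Ccr7* and *Ccl22*. Another, of 2459 UMIs, had 6 UMIs of *Cd79a* and *Ms4a1* and is the chosen WT barcode with at least 3 of these that fell outside cluster 1. The name of the cluster therefore covers several kinds of class II barcode, and it was lost when each gene was scaled to unit variance before clustering.

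C1q barcodes carried some genes of macrophages, beside thymocyte RNA at a level given below. At least 3 UMIs of *C1qa*, *C1qb* and *C1qc* were found in 11 chosen WT barcodes and 3 chosen *Eif4g2* cKO barcodes, all 3 of the latter and 9 of the former in cluster 0. *Apoe* was found in all 11 WT barcodes (203 UMIs) and in all 3 *Eif4g2* cKO barcodes (33 UMIs). *Tyrobp* had 90 UMIs in 10 of the WT barcodes and 7 in the 3 *Eif4g2* cKO barcodes, and *Lyz2* had 62 in 9 and 2 in 1. *Aif1*, a gene of macrophages and microglia, had 27 UMIs in 9 WT barcodes and 3 in 2 *Eif4g2* cKO barcodes. Several defining macrophage markers were absent: *Mrc1*, *Mertk*, *Cd5l* and *Hmox1* had 0 UMIs in all 75 barcodes. The defining myeloid receptor gene *Csf1r* had 11 WT and 8 *Eif4g2* cKO UMIs over all chosen barcodes.

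Over the whole libraries, at least 3 C1q UMIs were found in 18 WT barcodes (0.299%, 0.177 to 0.473%) and 11 *Eif4g2* cKO barcodes (0.254%, 0.127 to 0.454%). These shares overlapped in their intervals, and 7 WT and 8 *Eif4g2* cKO barcodes of them lay outside the rule of 10 UMIs. All other barcodes, mostly thymocytes, held these genes at 8.34 (WT) and 5.36 CPM, the latter in *Eif4g2* cKO.

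Class II UMIs were counted by the rule, so they helped to decide which C1q barcodes were chosen, and their levels in the chosen ones are a description. The 4 class II genes made up 0.852% (0.765 to 0.945%) of the UMIs of the 11 WT barcodes, with a median of 0.876% and a highest value of 3.41%, and 2 of the 11 had none. In the 3 *Eif4g2* cKO barcodes 0 of 5110 UMIs were class II, which allows up to 0.0722%. These *Eif4g2* cKO barcodes had 1363, 1771 and 1976 UMIs, so the 0 rests on few molecules. Over all barcodes with at least 3 C1q UMIs, whether the rule kept them or not, 9 of 18 in WT and 2 of 11 in *Eif4g2* cKO had a class II UMI. Class II made up 0.537% of UMIs (0.483 to 0.597%) in the former and 0.0217% (0.00704 to 0.0506%) in the latter. All 352 WT class II UMIs lay in the chosen barcodes, and all 5 of *Eif4g2* cKO in barcodes outside the rule.

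*Siglech*, *Klk1* and *Cox6a2*, genes of plasmacytoid dendritic cells, marked 5 *Eif4g2* cKO barcodes and 1 WT barcode of cluster 3. *Siglech*, a lectin of these cells, had 5, 6, 7, 0 and 7 UMIs in the *Eif4g2* cKO barcodes of 2457, 2903, 2995, 3091 and 3546 UMIs. *Klk1* had 0, 0, 0, 16 and 31 UMIs, and *Cox6a2* had 17, 5, 16, 0 and 0. So *Klk1* and *Cox6a2* did not occur together in any of these 5 barcodes, while *Bst2*, the antiviral tetherin that is also high in this cell type, had 21, 13, 11, 9 and 12 UMIs. Their *Tyrobp* UMIs were 52, 37, 48, 23 and 70, and the barcode of 2903 UMIs had 66 class II UMIs besides, whereas the others had at most 3. The WT barcode had 7489 UMIs, with 6 of *Siglech*, 20 of *Tcf4*, a transcription factor that plasmacytoid cells require, 180 of *Ly6c2*, 54 of *Cd209d* and 0 of *Klk1* and *Cox6a2*.

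Over the whole libraries at least 3 UMIs of *Siglech*, *Klk1* and *Cox6a2* were found in 8 WT barcodes (0.133%, 0.0574 to 0.262%) and 9 *Eif4g2* cKO barcodes (0.208%, 0.0950 to 0.394%), and the intervals overlapped. The rule had kept 1 of the 8 and 6 of the 9, the sixth being a barcode of 25156 UMIs outside cluster 3 that had 34 UMIs of *Cox6a2*. The plasmacytoid list as a whole stood at 904 CPM (788 to 1033) in the chosen WT barcodes and 2130 CPM (1893 to 2388) in the chosen *Eif4g2* cKO barcodes, with 16 and 11 barcodes at 3 UMIs or more.

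Cluster 3 held a further kind with *Lyz2*. In 3 WT barcodes of 5024, 5353 and 9692 UMIs, *Lyz2* had 78, 8 and 91 UMIs and *Ifitm3*, an antiviral membrane protein, 50, 38 and 86. An *Eif4g2* cKO barcode of 9761 UMIs had 70 of *Lyz2* and 13 of *Ifitm3*. *Ccl6*, a chemokine of myeloid cells, had 22 UMIs in the 3 WT barcodes and 0 in the *Eif4g2* cKO barcode. *Cd74* had 0, 138 and 193 UMIs in the WT barcodes and 9 in the *Eif4g2* cKO one. The remaining 2 WT barcodes of this cluster, of 5436 and 6142 UMIs, carried *Cd209d* (9 and 13 UMIs), *Cst3* (27 and 28) and *Tyrobp* (24 and 38).

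Cluster 4 was led by genes of cytotoxic lymphocytes: *Gzmc*, *Xcl1*, *Ccl5*, *Gzma*, *Nkg7*, *Ctsw*, *Pglyrp1*, *Ms4a4b*, *Il2rb* and *Cd160*. *Gzmc* and *Gzma* encode granzymes, *Xcl1* encodes the ligand of XCR1, and *Il2rb* a chain of the receptors for IL-2 and IL-15. The 4 *Eif4g2* cKO barcodes, of 3431, 3883, 5477 and 7886 UMIs, had 0, 4, 240 and 46 UMIs of *Gzmc*, 3, 8, 6 and 108 of *Xcl1*, and 28, 41, 66 and 0 of *Ccl5*. Their *Tyrobp* UMIs were 12, 21, 51 and 30, and they held 1 class II UMI between them. The WT barcode of this kind had 2883 UMIs, with 65 of *Ccl5*, 48 of *Gzma*, 37 of *Tyrobp*, 4 of *Ncr1* and 0 of *Gzmc* and *Xcl1*. Such genes are not rare outside the rule: at least 3 UMIs of *Nkg7*, *Ccl5*, *Gzma*, *Gzmc*, *Xcl1* and *Klrd1* were found in 413 WT and 336 *Eif4g2* cKO barcodes, of which 5 and 8 were chosen. These barcodes entered the set through *Tyrobp* and are not antigen-presenting by their class II genes.

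*Tyrobp* brought in a group of very deep barcodes as well, which share *Adgrg1*, an adhesion receptor of stem cells and of cytotoxic lymphocytes. The group was set apart after its values had been seen, by *Adgrg1*, *Cd34*, *Ifitm1* and *Igfbp4*. *Adgrg1* had 7, 11, 8 and 17 UMIs in 4 *Eif4g2* cKO barcodes of 14754, 15617, 18094 and 25156 UMIs, and 25 UMIs in a WT barcode of 47667 UMIs. *Plac8* had 25, 31, 66 and 151 UMIs in the former and 44 in the latter, and *Tyrobp* 55, 28, 55 and 24, and 64. *Hbb-bt*, an adult beta globin, had 11, 43, 16 and 0 UMIs, and 17 in WT. Class II made up 1 UMI in the 4 *Eif4g2* cKO barcodes and 0 in the WT barcode. *Hist1h2ae*, a histone gene of S phase, had 259 UMIs in the WT barcode and 1 in the *Eif4g2* cKO group. *Hbb-bt*, *Adgrg1*, *Hist1h2ae* and *Igfbp4* lead cluster 0 together with *C1qa* and *C1qb*, beside *Myl10*, *Cdk6*, *Ptpn11* and *Ikzf2*. That is why cluster 0 stays unnamed. *Ptpn11* reached this place through 61 UMIs in 1 *Eif4g2* cKO barcode.

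A single *Eif4g2* cKO barcode of 1457 UMIs carried neutrophil genes. It had 26 UMIs of *S100a9* and 11 of *S100a8*, which encode calprotectin, 12 of *Il1b*, 7 of *Csf3r*, the receptor for G-CSF, 5 of *Cxcr2* and 21 of *Tyrobp*. The neutrophil list stood at 54.2 CPM in the chosen WT barcodes and 414 CPM in the chosen *Eif4g2* cKO ones, where this barcode alone had 3 or more UMIs of it. *Camp*, *Retnlg*, *Ngp*, *Ltf*, *Elane* and *G0s2* of the list had 0 UMIs.

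Class II was set beside kind of barcode. Its genes are in the rule and brought in nearly all barcodes of the B cell-like and cDC1-like clusters, so barcodes low in class II had been left out and the levels are a description. In the B cell-like cluster the 4 class II genes made up 4.15% of UMIs in WT (3.98 to 4.32%), with single barcodes from 2.78 to 6.50%, and 6.68% (5.55 to 7.97%) in the *Eif4g2* cKO barcode. In the cDC1-like cluster they made up 4.115% in WT (3.95 to 4.28%), with barcodes from 0.895 to 6.69%, and 5.29% (4.86 to 5.76%) in *Eif4g2* cKO, with barcodes from 1.21 to 7.82%. In the *Siglech* kind the values were 0.908% in the WT barcode and 0.480% (0.376 to 0.605%) in the 5 *Eif4g2* cKO barcodes. The ranges of WT and *Eif4g2* cKO barcodes overlapped in the cDC1-like cluster. Both clusters together held 34 WT and 5 *Eif4g2* cKO barcodes.

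**Figure D3:**
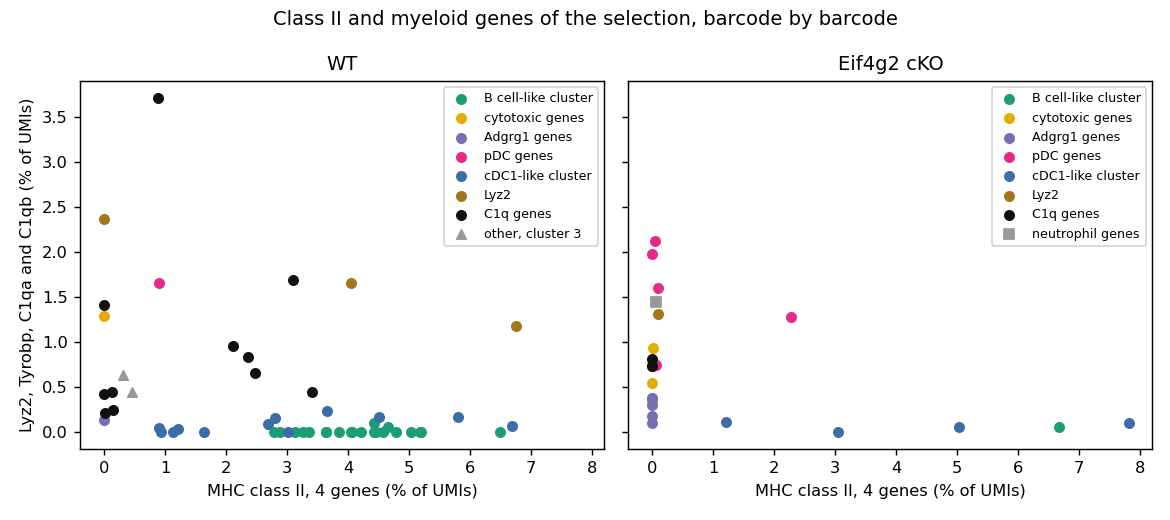
Share of UMIs from the 4 class II genes (x axis, percent) against the share from *Lyz2*, *Tyrobp*, *C1qa* and *C1qb* (y axis, percent) for each chosen barcode, in WT (left) and *Eif4g2* cKO (right), colored by kind. B cell-like and cDC1-like barcodes spread along the x axis, up to 6.69% in WT and 7.82% in *Eif4g2* cKO, and the cytotoxic and *Adgrg1* kinds lie at or near 0 on it, while the *Siglech* kind reaches 2.27%.

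Thymocyte RNA was measured by a list of 20 genes in the files, from the CD3 chains, coreceptors and RAG genes to *Themis*, *Satb1* and *Tcf7*, none of which the rule used. All chosen barcodes together carried it at 4796 CPM in WT (4523 to 5082) and 4492 in *Eif4g2* cKO (4145 to 4861), against 16311 and 13187 in all other barcodes. The sum hides large differences between kinds. Summed, C1q barcodes stood near the level of all other barcodes in WT, at 15363 CPM (14191 to 16606). In *Eif4g2* cKO they stood above it, at 22896 (18936 to 27441) from 117 UMIs in 3 barcodes. A single WT barcode of 9948 UMIs held 218 of the 635 WT UMIs. The median WT C1q barcode lay below the median of all other WT barcodes, at 12.6 against 23.05 UMIs per 1000. B cell-like barcodes stood at 1269 (983 to 1611) in WT and 1642 (339 to 4799) in the single *Eif4g2* cKO barcode. The other kinds lay between or below: *Adgrg1* 902 and 2948, cytotoxic 2428 and 2467, cDC1-like 4150 (12 WT barcodes, without 1 counted among C1q barcodes) and 3951, *Lyz2* 4235 and 10655, and *Siglech* 4273 and 5470, each WT first.

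Barcode by barcode, the 11 WT C1q barcodes ran from 1.03 to 31.8 thymocyte UMIs per 1000 UMIs with a median of 12.6, and the 3 *Eif4g2* cKO ones had 16.1, 22.6 and 27.8. The 21 WT B cell-like barcodes ran from 0 to 4.57 with a median of 0.992, and the medians of all other barcodes were 23.05 in WT and 19.7 in *Eif4g2* cKO. Some cDC1-like barcodes came near these medians. The highest had 23.6 in WT, just above the WT median, and 18.5 in *Eif4g2* cKO, below its median. After thinning to 1000 UMIs, at least 1 UMI of a CD3 chain was found in 90.9% (58.7 to 99.8%) of the WT C1q barcodes and in 9.52% (1.17 to 30.4%) of the WT B cell-like barcodes. All other WT barcodes gave 95.2% (94.6 to 95.7%). Their median depths before thinning were 2482, 2049 and 1728 UMIs.

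**Figure D4:**
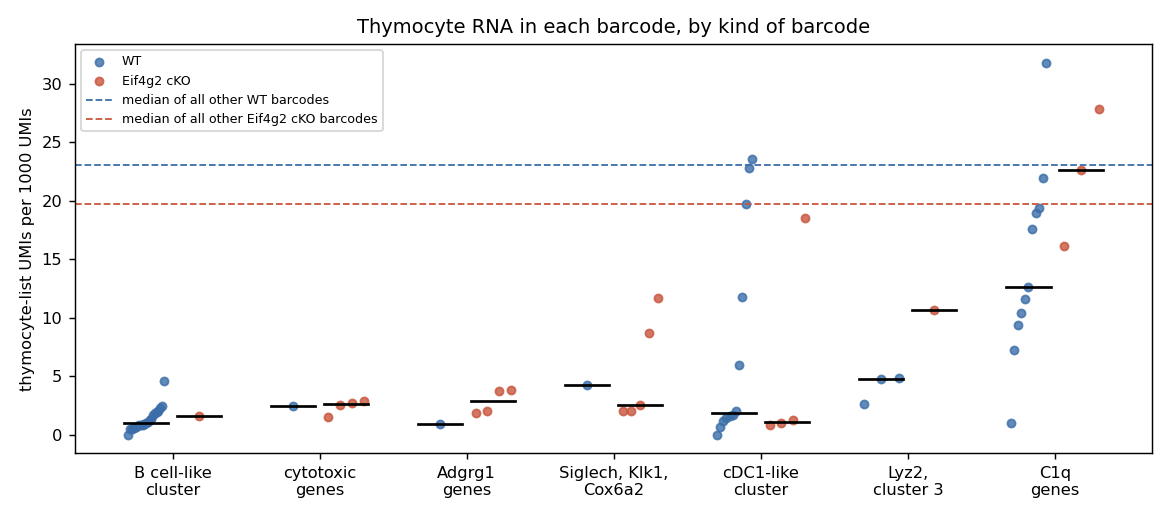
UMIs of the thymocyte list per 1000 UMIs (y axis) for single barcodes by kind (x axis), WT in blue and *Eif4g2* cKO in red, with black bars at medians and dashed lines at the medians of all other barcodes (23.05 and 19.7). C1q barcodes reach up to 31.8, and B cell-like barcodes stay at or below 4.57.

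Gene by gene, most thymocyte genes in the WT C1q barcodes had intervals that held their level in all other WT barcodes. *Cd3e* stood at 96.5% of its level in them (66.5 to 136%), *Cd3d* at 81.9% (60.6 to 108%) and *Cd3g* at 117% (85.9 to 155%). The coreceptor genes *Cd4* and *Cd8a* stood at 90.3% and 75.0%, and *Cd8b1* at 76.2%, with an interval below 100% (57.4 to 99.2%). *Lck*, the kinase of the T cell receptor, stood at 105%. *Tcf7* and *Satb1*, transcription factors of thymocytes, stood at 100.0% and 111%, and *Dntt*, the nucleotide-adding enzyme of V(D)J joining, at 67.1% (43.0 to 99.8%). Of the 95 *Satb1* UMIs, 57 lay in 1 barcode. *Thy1*, a surface protein of thymocytes, stood at 67.5% (48.4 to 91.5%) and *Rag1*, a recombinase of V(D)J joining, at 57.1% (26.1 to 108%). The costimulatory genes stood higher, *Cd28* at 212% (131 to 324%) and *Cd2* at 182% (117 to 271%), from 21 and 24 UMIs. Single WT barcodes of cluster 0 held up to 11 UMIs of *Cd28*, 12 of *Cd2*, 26 of *Cd8b1*, 22 of *Themis* and 15 of *Cd3e*. In the 3 *Eif4g2* cKO C1q barcodes *Rag1* stood at 479% (207 to 944%) of its level in all other *Eif4g2* cKO barcodes, *Cd4* at 396% (190 to 729%) and *Cd8b1* at 201% (119 to 317%), from 8, 10 and 18 UMIs. All other genes of the list had intervals there that held 100%. These genes ran from 0 UMIs of *Cd2* and *Ptcra* and 83.8% for *Tcf7* to 511% for *Rag2*, the last from 2 UMIs. The source of this RNA was not tested. Erythroid RNA, which was abundant in the other WT barcodes (14118 CPM, against 847 in *Eif4g2* cKO), stood at 96.8 CPM (26.4 to 248) in the WT C1q barcodes, from 4 UMIs, and at 300 and 516 CPM in all chosen WT and *Eif4g2* cKO barcodes.

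Comparing all chosen barcodes of *Eif4g2* cKO with those of WT, 999 genes had at least 50 UMIs over both. Of these, 36 (3.6% of genes tested) were higher and 119 (11.9% of genes tested) were lower in *Eif4g2* cKO by over 1 on the log2 scale, and the median over all 999 genes was -0.05. A gene could reach 50 UMIs through 1 library alone, as *Ms4a1* did with 77 UMIs in WT and 1 in *Eif4g2* cKO. Counts of genes past the fold are therefore a description. Many of the genes at both ends were named above with a kind of barcode. *Ly6a*, however, was also lower in *Eif4g2* cKO outside the B cell-like cluster. It had 21 WT and 0 *Eif4g2* cKO UMIs in cluster 2, and 34 and 3 in cluster 3. In all other barcodes it stood at 21.8 CPM in WT and 6.42 in *Eif4g2* cKO. The lowest log2 ratios belonged to *Ms4a1* (-5.46), *Hist1h2ae* (-4.60), *Cd79a* (-4.005), *Ly6a* (-3.99), *Gzma* (-3.90), *Fcmr* (-3.81), *H2-DMb2* (-3.72), *Ebf1* (-3.39), *H2-Ob* (-3.23) and *Cd79b* (-3.12). Single barcodes held 259 of 382 WT UMIs of *Hist1h2ae* and 48 of 52 of *Gzma*.

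At the other end, *Gzmc*, *Xcl1* and *Cox6a2* had 0 UMIs in the WT barcodes and 290, 125 and 72 in the *Eif4g2* cKO ones. Against a floor of 3 UMIs over the WT barcodes their log2 ratios were at least 7.40, 6.18 and 5.39. They were followed by *Ifitm1* (4.77, interval 3.48 to 6.43), *Nkg7* (2.88), *Ptpn11* (2.72), *Hbb-bt* (2.35), *Cd7* (2.12), *Hcst* (1.88), which encodes the adaptor DAP10, and *Plac8* (1.75). Single barcodes held 240 UMIs of *Gzmc*, 108 of *Xcl1* and 61 of 68 of *Ptpn11*, and the *Adgrg1* barcode of 25156 UMIs held 34 of 72 of *Cox6a2*. Without the B cell-like cluster, 94 of 857 genes were lower and 33 higher, and 81 of the 119 and 25 of the 36 were among them.

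**Figure D5:**
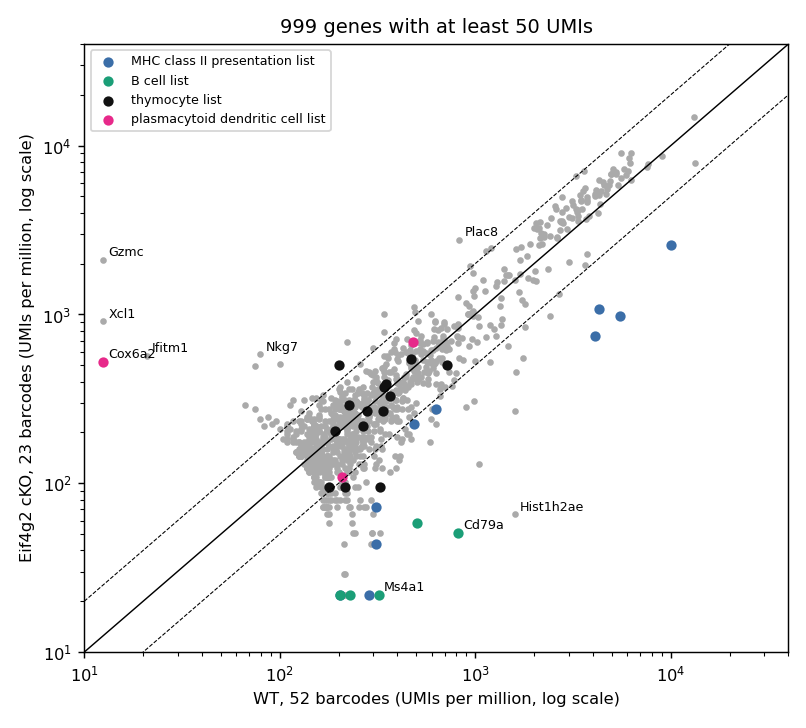
Summed level in the 23 *Eif4g2* cKO barcodes (y axis) against the 52 WT barcodes (x axis), both in CPM on log scales, for 999 genes with at least 50 UMIs, with counts under 3 UMIs drawn at 3. The solid line marks equal levels and the dashed lines a log2 ratio of 1, and all 10 class II genes tested lie below the lower dashed line.

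Of the class II presentation genes 10 of the 10 tested were lower by over 1 (median -2.28), beside 11.9% of all genes tested. The list stood at 26315 CPM in WT (25670 to 26973) and 6084 CPM in *Eif4g2* cKO (5679 to 6511). The rule used 4 of these genes, which held 5728 of 6315 UMIs of the list for WT and 743 of 837 for *Eif4g2* cKO, so its level is a description. Among the others, *Ctss*, the protease that cleaves the invariant chain, stood at 629 and 276 CPM (-1.19, interval -1.74 to -0.67), and *H2-DMa* at 483 and 225 CPM (-1.10, -1.72 to -0.52). These sums cover different mixes of kinds of barcode. In the cDC1-like cluster the 2 genes lay at 0.30 (-1.45 to 1.73) and 0.86 (-0.50 to 2.06). In cluster 3 they lay at -0.44 (-1.16 to 0.24) and -1.30 (-2.47 to -0.27). Outside the B cell-like cluster the list stood at 20474 CPM in WT and 5216 in *Eif4g2* cKO.

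Class I presentation did not move past the fold: 0 of 11 genes were higher or lower by over 1 (median -0.25), and the list stood at 7180 and 6179 CPM, above 2988 and 2989 in all other barcodes. *B2m*, the shared light chain, stood at 1688 and 1745 CPM (0.05, -0.19 to 0.28). The heavy chains *H2-K1* (-0.61, -0.94 to -0.29) and *H2-D1* (-0.68, -1.08 to -0.29) stood lower in *Eif4g2* cKO, and the proteasome genes *Psmb8*, *Psme1* and *Psme2* lay at -0.27, -0.25 and -0.14.

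Of the genes for complement and uptake of dying cells 3 were tested and 3 were lower, beside 11.9% of all genes tested. All 3 were C1q chains. *C1qa* and *C1qb* are genes of the rule, and the rule left out 8 of 11 *Eif4g2* cKO and 7 of 18 WT barcodes with at least 3 C1q UMIs, so this count is a description. *C1qc* lay at -2.90 (-4.83 to -1.46). *Mertk*, *Tyro3*, *Gas6*, *Stab1* and *Megf10* had 0 UMIs in all 75 barcodes. Of 7 lysosome genes 4 were lower (median -1.03), beside 11.9% of all genes tested, among them *Psap*, a precursor of sphingolipid activators (-1.10, -1.41 to -0.80), and the cathepsin *Ctsz* (-1.50), whereas *Npc2* and *Ctsd* lay at -0.16 and -0.07. Of 4 genes for lipid and iron handling 1 was lower, beside 11.9% of all genes tested. It was *Apoe* (-2.58, -3.10 to -2.09), and the ferritin genes *Fth1* and *Ftl1* lay at 0.46 and -0.24. Among ITAM adaptors, Fc and lectin receptors 0 of 3 passed the fold, and *Fcer1g*, the shared gamma chain of Fc receptors, lay at 0.29 (-0.11 to 0.67). *Lyn*, a kinase of B and myeloid cells below the limit on UMIs, had 40 UMIs in the WT barcodes and 7 in the *Eif4g2* cKO ones.

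Of the 19 interferon response genes in the files 3 had enough UMIs, and 2 of these were lower past the fold (median -1.56), beside 11.9% of all genes tested, with the list at 2729 CPM in WT and 1308 in *Eif4g2* cKO. *Ifi27l2a* (-2.99, -3.77 to -2.30) and *Isg15* (-1.56, -2.36 to -0.85), a ubiquitin-like protein, were lower, and *Bst2* was higher by less than the fold (0.51, 0.10 to 0.92). All other barcodes differed in the same direction, at 885 CPM in WT and 483 in *Eif4g2* cKO. Outside the B cell-like cluster the list stood at 2410 and 1274 CPM. Of 7 immediate early and stress genes 2 were lower, again beside 11.9% of all genes, the AP-1 genes *Jun* (-2.74) and *Junb* (-1.26), while *Ier2* and *Hsp90aa1* lay at 0.22 and -0.20. In WT, 37 of 70 UMIs of *Jun* came from the deepest barcode.

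Signals between cells were sparse. Among chemokines only *Ccl5* had enough UMIs, mostly from the cytotoxic kind. It was higher (1.55, 1.15 to 1.97), so 1 of 1 passed, beside 3.6% of all genes tested. *Cxcl16* and *Ccl22* had 21 and 8 UMIs in WT barcodes and were not found in *Eif4g2* cKO. Among chemokine receptors *Ccr9*, a homing receptor of thymocytes, was the 1 gene tested (-0.58, -1.45 to 0.23), and *Ccr7* had 10 UMIs, all in WT. Of the costimulation and checkpoint ligands 1 was tested and lower, beside 11.9% of all genes tested. It was *Lgals9*, which encodes galectin-9 (-1.13, -1.996 to -0.34). *Cd83*, *Cd86* and *Cd40*, genes of activated B and dendritic cells, had 15, 9 and 6 WT UMIs against 1, 1 and 0, too few to order.

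No growth factor receptor gene reached 50 UMIs. *Csf2ra*, a chain of the GM-CSF receptor, had 16 and 4 UMIs, and *Flt3*, the receptor that dendritic cell precursors need, 9 and 7. Of the cytokines *Tgfb1* was the 1 tested (0.20, -0.67 to 1.03), and *Il6*, *Il10*, *Tnf* and *Il27* had 0 UMIs. Among pattern recognition genes *Unc93b1*, the chaperone of endosomal Toll-like receptors, was the 1 tested (-0.93, -1.83 to -0.10), and *Tlr2*, *Tlr4*, *Tlr6*, *Tlr8* and *Tlr9* had 0 UMIs. None of 4 lineage transcription factors passed the fold, with *Irf8* at -0.24, *Id2* at 0.24, *Spi1*, which encodes PU.1, at -0.48, and *Tcf4* at -0.93.

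The marker lists were summed over all kinds of barcode, and their counts stand beside 3.6% of all genes tested that were higher and 11.9% that were lower. All 5 B cell genes tested were lower (list at 2396 CPM in WT and 174 in *Eif4g2* cKO), and all 5 macrophage genes tested were lower (3105 and 792 CPM). The latter were *Apoe*, *Aif1* and the C1q chains, of which *C1qa* and *C1qb* are in the rule, and 168 of 385 WT UMIs of *Apoe* lay in the B cell-like cluster. Of 3 cDC1 genes 1 was lower (1138 and 661 CPM), the 1 cDC2 gene tested was not past the fold (1113 and 923 CPM), and migratory dendritic cell genes had too few UMIs (413 and 79.96 CPM). Of 3 plasmacytoid genes 1 was higher, *Cox6a2*, with 34 of its 72 UMIs in 1 *Adgrg1* barcode. Of 4 monocyte genes 1 was higher and 2 were lower (3150 and 3656 CPM). Of 14 thymocyte genes 1 was higher and 2 were lower (median -0.11), shares near those over all genes. Of 4 cycling genes 1 was lower (2775 and 2355 CPM), *Tubb5* and *Stmn1* being the most abundant. The 1 tested gene of natural killer and innate lymphoid cells, *Gzma*, was lower (267 and 102 CPM for the list), with 48 of its 52 WT UMIs in 1 barcode, although the cytotoxic kind held 1 WT and 4 *Eif4g2* cKO barcodes, and the 1 tested erythroid gene, *Hbb-bt*, was higher. Other stroma was nearly absent: all 8 fibroblast genes had 0 UMIs, thymic epithelial genes stood at 54.2 and 21.8 CPM with *Aire*, *Foxn1*, *Krt5* and *Krt8* at 0, endothelial genes at 45.8 and 102 CPM, and genes of mast cells, basophils and eosinophils at 16.7 and 21.8 CPM.

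*Eif4g2* itself, the floxed gene, encodes a relative of the scaffold eIF4G that starts translation without binding the cap protein eIF4E. It had 54 UMIs in 21 WT barcodes and 35 UMIs in 14 *Eif4g2* cKO barcodes, with at most 16 and 12 in 1 barcode. The level was 225 CPM (169 to 294) in WT against 254 CPM (177 to 354), with the log2 ratio at 0.18 (-0.48 to 0.82), and all other barcodes stood at 223 and 274 CPM. The counts are of tags near the 3′ end of the transcript, so they do not check a deletion elsewhere in the gene. Its paralogs lay at -0.09 (*Eif4g1*, -1.14 to 0.90) and -1.06 (*Eif4g3*, -2.40 to 0.11), and 0 of 3 tested genes of the eIF4G and eIF4E group passed the fold, with the helicase *Eif4a1* at 0.71 (0.26 to 1.15).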

How the data were processed

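Thymus cells of 1 WT and 1 *Eif4g2* cKO mouse were captured on the DNBelab C4 system. Per the labels the authors mapped reads to mm10 and counted UMIs with dnbc4tools (2.1.3 in the labels, 3.0 in the file headers), and they deposited raw counts of 21926 genes per barcode. Oligo libraries hold no values used here. All per-sample columns were used.

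Barcodes were chosen by the sum of 8 genes. Counts were scaled to 10000, log-transformed and clustered with scanpy 1.11.5 (1000 variable genes, 15 components, 10 neighbours, Leiden resolution 1, seed 1). A name needed 3 markers raised by 1 on the log2 scale and leading genes that fitted. The names that this gave to clusters 0, 3 and 4 were set aside. Sums were scaled to a total of 1000000 UMIs (CPM). Poisson, Clopper-Pearson and conditional binomial intervals at 95% were exact (scipy 1.17.1). Genes with at least 50 UMIs were described by a log2 ratio beyond 1. Of the identifiers, 97.5% matched GENCODE M21. No barcode was removed as a doublet.

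Named genes were those of the rule, up to 6 of each list by UMIs and defining markers at 0, the top 10 of each cluster, the 10 highest and 10 lowest ratios, *Eif4g* and Y-linked genes. Other named genes, and the kinds of barcode by few genes, were chosen after their values were seen. Members and lists were chosen with earlier results of these data known. The steps were tested on simulated data. Alternatives changed the threshold, thinning, depth limit, clustering, filter and scaling. *Trac*, *Trbc1*, *Trbc2* and 10 other listed genes were not analysed here, and 1 gene of the B cell list is not reported here and was left out of that list after its values had been seen.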

Additional observations from a re-analysis of the deposited data

How the results depend on the processing

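Of 76 alternative values for 11 results, 57 stayed within the interval of the reported value (for counts of genes, within 1.5 times its share) and 19 did not. The B cell-like share stayed at 36.5 to 42.3% in WT and at 4.35% in *Eif4g2* cKO under every clustering tried and by the marker list with most UMIs. The share of chosen barcodes moved to 1.28% in WT with a threshold of 5 UMIs and to 0.277% in *Eif4g2* cKO after thinning. The thymocyte list moved in WT to (in CPM) 6515 (at least 5 UMIs of the rule genes), 4337 (at least 20), 5113 (at least 0.5% of UMIs), 6899 (barcodes of at most 10000 UMIs), 15363 (C1q barcodes only) and 5762 (without the deepest barcode). In *Eif4g2* cKO the first 5 of these gave 6616, 3805, 7882, 6271 and 22896. The cDC1-like share in WT moved to 11.5% at a resolution of 1.5, 7.69% by the marker list with most UMIs and 0% with unit variance, and in *Eif4g2* cKO to 0% with unit variance; by the marker list the latter fell to 8.70%, within its interval. The genes lower by over 1 made up 18.7% of those with at least 20 UMIs, and the genes higher by over 1 made up 6.11% by the mean over barcodes. The causes were not tested. The *Eif4g2* log2 ratio, 0.18 with an interval that holds 0, changed sign to -0.07 for barcodes with at least 0.5% of UMIs in the rule genes and to -0.02 by the mean over barcodes, and lay within that interval under all 4 alternatives. The alternatives with unit variance, C1q barcodes only, without the B cell-like cluster, without cluster 0 and, for thymocyte RNA, without the deepest barcode were chosen after the data had been seen. A thymocyte list without T cell receptor constant genes was not run, since those genes were not analysed here. No paired analysis was possible because there is 1 library per genotype.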
